A study of Mus musculus with 25 samples.

Results

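The genes described here encode the subunits of RNA polymerases I, II and III. They were taken by symbol, as all genes of the expression table whose symbol starts with Polr1, Polr2 or Polr3, with no use of their values. The rule found 29 of 23116 genes, of which 5 start with Polr1, 14 with Polr2 and 10 with Polr3. Of the 14, *Polr2k-ps* is a processed pseudogene, so that 28 genes encode protein subunits. The prefix does not give the enzyme. By textbook assignment, 3 of the 28 belong to Pol I alone (*Polr1a*, *Polr1b*, *Polr1e*), 2 to both Pol I and Pol III (*Polr1c*, *Polr1d*), 8 to Pol II alone (*Polr2a*, *Polr2b*, *Polr2c*, *Polr2d*, *Polr2g*, *Polr2i*, *Polr2j*, *Polr2m*), 5 to all 3 enzymes (*Polr2e*, *Polr2f*, *Polr2h*, *Polr2k*, *Polr2l*) and 10 to Pol III alone. Of the Pol II group, *Polr2m* encodes a factor that binds the finished enzyme rather than a core subunit. The rule left out 4 subunits that the table lists under older symbols: *Twistnb*, *Cd3eap* and *Znrd1* of Pol I and *Crcp* of Pol III.

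Pol I transcribes the large ribosomal RNA precursor in the nucleolus, Pol II transcribes messenger RNAs and many non-coding RNAs, and Pol III transcribes 5S ribosomal RNA, transfer RNAs and other short RNAs. Each enzyme has its own pair of large catalytic subunits, and the smaller subunits are partly shared. Hematopoietic stem cells keep a low rate of protein synthesis, so the enzymes that make ribosomal and transfer RNA are of interest in them. ZNF143 is a zinc finger protein that binds promoters of both Pol II and Pol III genes, among them small nuclear RNA genes and the selenocysteine transfer RNA gene.

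RNA-seq was available for 3 *Znf143 f/f* and 3 *Znf143 -/-* libraries of HSLAM cells, the LSK+ CD150+ CD48- stem cell population sorted from the bone marrow of male mice on the C57BL/6 background, 8 to 12 weeks old. All mice carried floxed *Znf143* with loxP sites on both sides of exon 1, and all were injected with tamoxifen at the middle dosage, over 10 days. The *Znf143 f/f* mice were *Rosa26ERT2-Cre-* and the *Znf143 -/-* mice were *Rosa26ERT2-Cre+*, so the groups also differ in the Cre transgene. Cre from the Rosa26 locus acts in most cell types, so the deletion is not limited to blood cells. By the study's legends these were 3 littermate pairs. The sources used here do not give which libraries form a pair, so the comparison leaves the pairs out. Libraries are called by genotype and by the replicate number of the labels.

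The libraries held between 38643255 and 57895793 fragments on genes. The 28 subunit genes had between 526 and 18317 fragments per library, and at 526 fragments the counting error of a log2 level is 0.06. The pseudogene had 1 to 8 fragments. Levels are given in FPKM, the fragments of a gene scaled to its length in kilobases and to the depth of the library. The FPKM of the third *Znf143 -/-* library carried the divisor of the second and were divided by its own total. *Zfp143*, the mouse symbol of *Znf143*, was at 3.06, 4.03 and 3.63 FPKM in the *Znf143 f/f* libraries and at 0.145, 0.303 and 0.273 FPKM in the *Znf143 -/-* libraries, a log2 difference of -3.46 ± 0.24 (SE, adjusted p = 0.00119 by limma with Benjamini-Hochberg adjustment). The sample labels name the deleted genotype a CTCF knockout. *Ctcf* was at 29.6 to 30.2 FPKM and at 26.7 to 29.6 FPKM, respectively.

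The libraries differed in ways that the genotype does not explain. The second *Znf143 f/f* and the first *Znf143 -/-* library stood apart from the other 4: over 1832 genes of up to 1000 bp the median deviation from the mean of all libraries was 0.13 and 0.26 on the log2 scale in these 2, against -0.13 to -0.04 in the other 4. Over 5360 genes longer than 4000 bp it was -0.15 and -0.14, against 0.06 to 0.09. The 2 *Znf143 f/f* libraries 1 and 3, and likewise the 2 *Znf143 -/-* libraries 2 and 3, were much alike, with squared differences of 3.53 and 4.17 times counting error (median over genes), where all other pairs had 39.7 to 90.5 times. They differed beyond counting error and were kept as separate replicates. Nothing in the labels says what separates the 2 libraries, and p-values measure the spread between these libraries.

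The sorted cells expressed stem cell markers, with *Slamf1* (CD150) at 4.68 to 9.17 FPKM, *Kit* at 12.6 to 22.0 FPKM and *Procr* at 43.3 to 48.5 FPKM in all 6 libraries. Of the markers that the gate selects against, *Cd3e*, *Cd4*, *Itgam* and *Ly6g* were at or below 0.331 FPKM in every library. *Ly6g*, of neutrophils, was at 0 to 0.0239 FPKM in *Znf143 f/f* and at 0.0446 to 0.219 FPKM in *Znf143 -/-* libraries, without overlap. It held only 0 to 10 fragments per library, did not pass the filter on low values and was not tested. *Cd3e*, *Cd4* and *Itgam* overlapped between genotypes. *Cd48*, which the gate also selects against, was at 9.50 to 10.1 FPKM in *Znf143 f/f* and at 18.2 to 20.8 FPKM in *Znf143 -/-* libraries. It was called higher, with a log2 difference of 1.00 (adjusted p = 0.00355 by limma). Of 7 neutrophil and monocyte genes, 5 were called higher in *Znf143 -/-* libraries. These were *Elane*, *Ctsg*, *Camp*, *Ngp* and *Csf1r*, all at or below 1.7 FPKM in every *Znf143 f/f* library. The summed level of the list was 115 to 229 FPKM against 174 to 276 FPKM. Most of this sum was *Prtn3*, which overlapped at 110 to 225 and 142 to 259 FPKM and was not called. Of 8 stem cell genes, 1 was called higher (*Ly6a*) and 1 lower (*Mecom*), and *Dntt* was called higher among the 4 lymphoid genes that passed the filter. Of the 8, 3 lay lower without overlap (*Mecom*, *Kit* and *Hlf*) and 1 higher (*Ly6a*). *Kit* was at 17.6 to 22.0 FPKM in *Znf143 f/f* and at 12.6 to 17.1 FPKM in *Znf143 -/-* libraries. *Hlf* was at 19.9 to 27.2 and 17.4 to 18.5 FPKM, respectively, and neither was called. Over all tested genes, 5.19% were called in either direction, 15.8% lay higher without overlap and 13.5% lower. None of 5 erythroid genes, of 4 megakaryocyte genes and of the 1 stroma gene that passed was called. All 4 megakaryocyte genes lay higher without overlap, with a summed level of 480 to 597 FPKM against 657 to 911 FPKM. Most of that sum was *Pf4*, at 355 to 475 FPKM against 506 to 764 FPKM, highest in the first *Znf143 -/-* library, which stood apart. The part of such cells in the subunit levels was not tested. In bulk RNA, fewer cells of a type and less RNA per cell cannot be told apart.

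The comparison asks whether deletion of *Znf143* moved the transcripts of the 3 enzymes, and those of 1 enzyme more than another. None of the 29 genes was called different between genotypes at an adjusted p under 0.05 (0 of 29), against 5.19% of the 19212 genes tested. By limma's voom on recovered fragments the count was also 0 of 29. With median-of-ratios scaling it was 0 of 29 as well, against 6.00% of all genes. At an unadjusted p under 0.05 there were 5 of 29 (17.2%), against 22.5% of all genes. All 29 passed the filter on low values. In 3 of 29 genes (10.3%) all *Znf143 -/-* libraries lay below all *Znf143 f/f* libraries, against 13.5% of all genes, and in 4 of 29 (13.8%) they lay above, against 15.8%. None of these shares of the members exceeded that of all genes.

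The 95% intervals of the 28 protein-coding genes ran at most from 0.602-fold to 1.78-fold, so that each excluded a 2-fold change in either direction. The median log2 difference over all 29 genes was 0.04, against 0.03 over all tested genes. By enzyme, it was 0.27 for the 3 genes of Pol I alone (0.14 without the second *Znf143 f/f* library), 0.02 for the 2 genes shared by Pol I and Pol III, -0.03 for the 8 genes of Pol II alone, 0.05 for the 5 genes shared by all 3 and 0.03 for the 10 genes of Pol III alone. The median of Pol III alone stands for genes on both sides of 0, 4 below and 6 above. Subunits under older symbols are not in these medians. Of Pol I, *Twistnb*, *Znrd1* and *Cd3eap* were at -0.01, -0.01 and 0.11, and *Crcp* of Pol III was at -0.49.

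**Figure D1:**
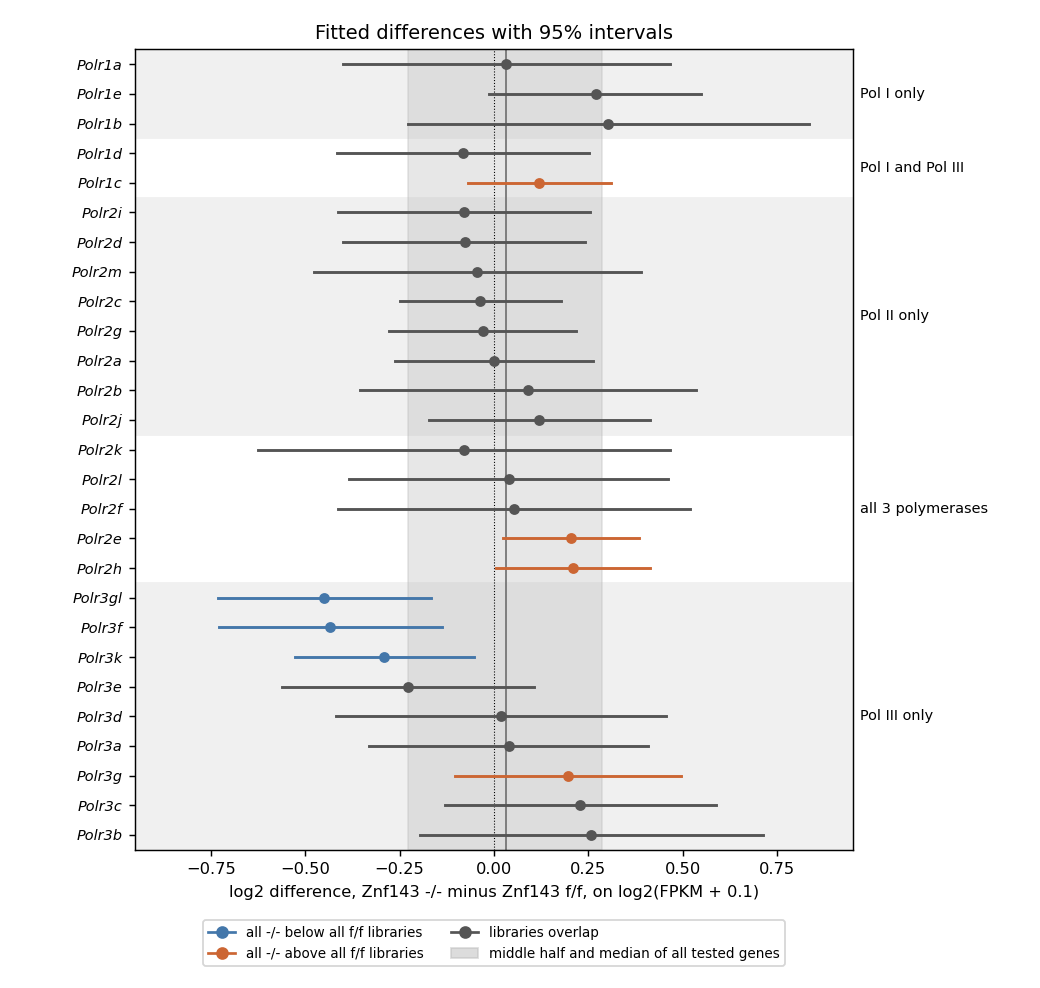
Log2 difference on log2(FPKM + 0.1), *Znf143 -/-* minus *Znf143 f/f*, for 27 of the 28 protein-coding subunit genes by enzyme; points are estimates over 3 libraries per genotype and lines are 95% intervals. The grey band runs from the lower to the upper quartile of all tested genes (-0.23 to 0.29) with their median at 0.03. The 3 lowest points, *Polr3gl*, *Polr3f* and *Polr3k*, all belong to Pol III, and the points of Pol II alone stay near 0.

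Levels per gene length differed widely within each enzyme. Among the 28 genes the mean over *Znf143 f/f* libraries ran from 2.5 FPKM for *Polr3a* to 424 FPKM for *Polr2f*. In each enzyme the gene of the largest subunit had the lowest level of its group, with 2.96 FPKM for *Polr1a*, 7.02 FPKM for *Polr2a* and 2.5 FPKM for *Polr3a*. The median level of the groups was 7.36 FPKM for Pol I alone, 8.48 FPKM for Pol III alone, 45.6 FPKM for the genes shared by Pol I and Pol III, 91.3 FPKM for Pol II alone and 93.8 FPKM for the genes shared by all 3. Subunits that sit in equal numbers in 1 enzyme thus differed in level per listed length. In Pol III it ran from 2.5 FPKM for *Polr3a* (5828 bp) to 60.0 FPKM for *Polr3k* (3124 bp). A level compared between genes depends on the listed length, and the part of length in these differences was not tested. The level of *Polr2f* rests on a listed length of 543 bp, where its exons in GENCODE release M21 cover 2595 bp, and for 24 of the 29 genes both lengths were the same.

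**Figure D2:**
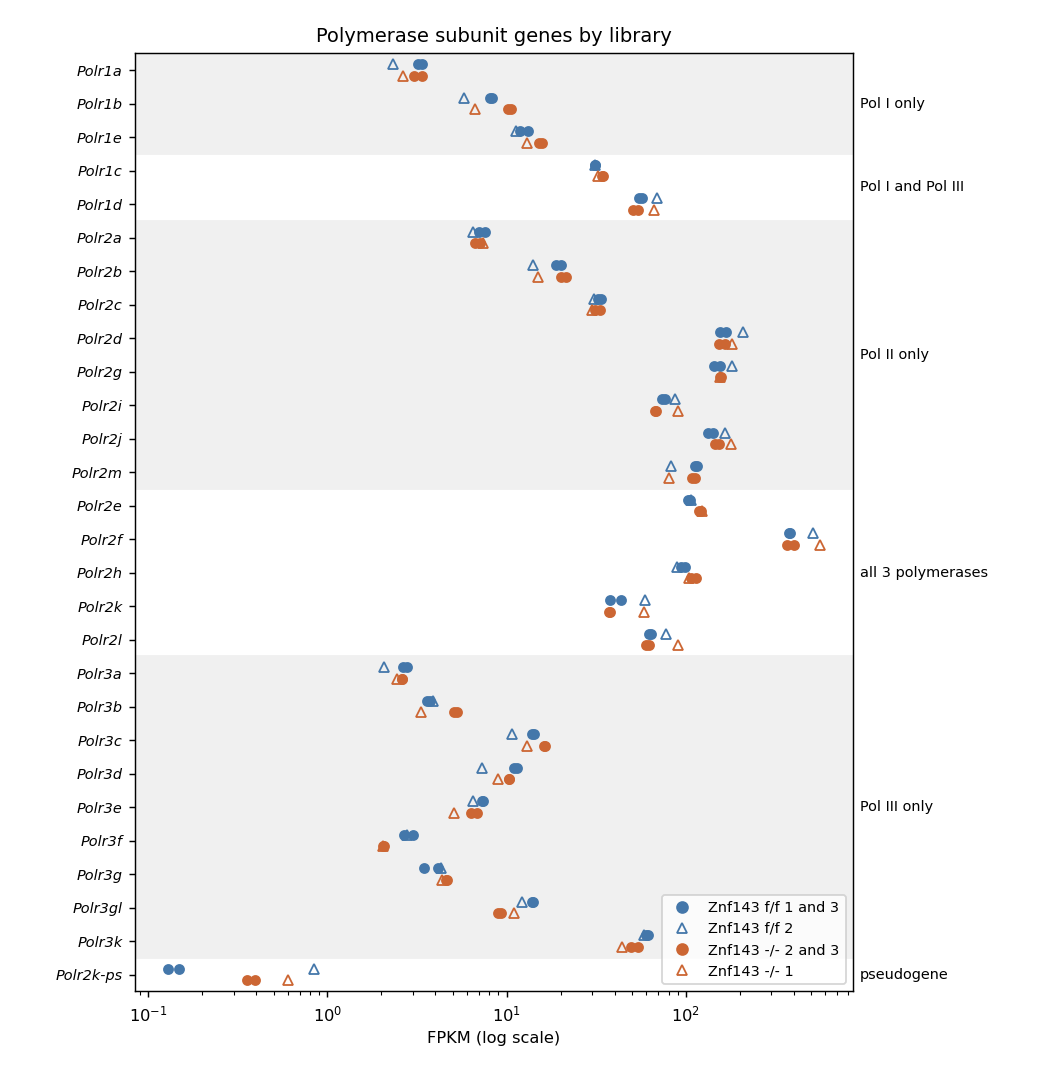
FPKM on a log axis of 28 of the 29 genes in each library, grouped by the enzyme that uses the subunit; blue marks *Znf143 f/f* and orange *Znf143 -/-*, and triangles mark the 2 libraries that stood apart (*Znf143 f/f* 2 and *Znf143 -/-* 1). In most genes both triangles lie to the same side of the circles, and the circles of both colours lie close together.

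Of the Pol I genes, the catalytic subunit gene *Polr1a* was at 3.35, 2.32 and 3.20 FPKM in the *Znf143 f/f* libraries and at 2.63, 3.36 and 3.03 FPKM in the *Znf143 -/-* libraries. The groups overlapped, and the log2 difference was 0.03 (95% interval -0.40 to 0.47). *Polr1b*, the second largest subunit, and *Polr1e*, which with *Cd3eap* forms a dimer on the enzyme, had the highest estimates of the 28 genes, 0.30 ± 0.22 (SE) and 0.27 ± 0.12, with adjusted p = 0.481 and adjusted p = 0.238. Leaving out 1 library moved *Polr1b* between 0.14 (without the second *Znf143 f/f*) and 0.51 (without the first *Znf143 -/-*). For *Polr1e* only the first *Znf143 -/-* library, at 12.9 FPKM, fell within the *Znf143 f/f* range of 11.3 to 13.1 FPKM. *Polr1c* and *Polr1d* encode the dimer on which Pol I and Pol III are assembled. *Polr1c* was at 31.0 FPKM in each *Znf143 f/f* library and at 32.4, 34.1 and 34.7 FPKM in the *Znf143 -/-* libraries, without overlap, a log2 difference of 0.12 ± 0.08 (adjusted p = 0.428). Its partner *Polr1d* overlapped, with 60.2 ± 7.5 and 57.0 ± 8.4 FPKM (mean ± SD, n = 3 each).

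The remaining Pol I subunits under older symbols were not called either. *Twistnb*, part of the stalk, had a log2 difference of -0.01, *Znrd1*, which acts in RNA cleavage, of -0.01 and *Cd3eap* of 0.11. *Cd3eap* lay higher without overlap, at 14.54 to 15.09 FPKM in *Znf143 f/f* and 15.38 to 16.55 FPKM in *Znf143 -/-* libraries, as did 15.8% of all genes. These 4 genes, *Crcp* included, were added with earlier results of these data known.

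The estimates of the 8 genes of Pol II alone lay between -0.08 and 0.12. *Polr2a*, which encodes the largest subunit with the C-terminal repeat domain, was at 7.59, 6.50 and 6.97 FPKM in the *Znf143 f/f* and at 7.38, 7.06 and 6.62 FPKM in the *Znf143 -/-* libraries. The means were 7.02 FPKM in both groups, with a log2 difference of 0.00 (95% interval -0.26 to 0.26). *Polr2b*, the second catalytic subunit, was at 17.7 ± 3.2 and 18.8 ± 3.3 FPKM. The assembly dimer *Polr2c* and *Polr2j* had log2 differences of -0.04 and 0.12, and the stalk genes *Polr2d* and *Polr2g* of -0.08 and -0.03. *Polr2i*, which serves accuracy and cleavage, was at -0.08 and *Polr2m* at -0.04. The adjusted p of the 8 genes ran from 0.617 upwards, and all 8 overlapped between genotypes. Sign is not given weight for these genes, since 7 of the 8, all but *Polr2j*, changed sign under at least 1 other setting.

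Of the 5 genes shared by all 3 enzymes, *Polr2e* and *Polr2h* lay higher without overlap, as did 15.8% of all genes. *Polr2e* was at 106, 106 and 103 FPKM in the *Znf143 f/f* libraries and at 123, 122 and 118 FPKM in the *Znf143 -/-* libraries, with no library between the groups. Its log2 difference was 0.20 ± 0.08 (95% interval 0.02 to 0.38, adjusted p = 0.181). *Polr2h* was at 98.4, 89.6 and 93.4 FPKM against 104, 114 and 107 FPKM, a log2 difference of 0.21 ± 0.09 (adjusted p = 0.214). Exons of *Polr2h* overlap 82 bp of *Clcn2* on the other strand, which an unstranded library cannot separate. The other 3, *Polr2f*, *Polr2k* and *Polr2l*, overlapped, with log2 differences of 0.05, -0.08 and 0.04. In these 3 genes the second *Znf143 f/f* and the first *Znf143 -/-* library were highest of their genotype, and in *Polr2h* they were lowest. For *Polr2f* they were at 510 and 562 FPKM, where the other 4 libraries were at 365 to 403 FPKM.

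The estimates of the 10 genes of Pol III alone ran from -0.45 to 0.26. In 3 of the 10, which had the lowest estimates of all 28 genes, the *Znf143 -/-* libraries lay lower without overlap (13.5% of all genes), and in 1 they lay higher (15.8% of all genes). With 10 genes, nothing particular to Pol III is read from these counts. *Polr3gl* and *Polr3g* encode alternative forms of 1 subunit, which forms an initiation trimer with the products of *Polr3c* and *Polr3f*. The form from *Polr3g* is known from pluripotent and transformed cells and that from *Polr3gl* from most differentiated cells. *Polr3gl* (ENSMUSG00000028104.14, GRCm38 chromosome 3, 96577872 to 96594181, minus strand) was at 14, 12.1 and 13.8 FPKM in the *Znf143 f/f* libraries and at 10.9, 9.35 and 8.93 FPKM in the *Znf143 -/-* libraries. All *Znf143 -/-* values were lower, and the closest libraries were the 2 that stood apart. The log2 difference was -0.45 ± 0.12 (0.733-fold, 95% interval -0.73 to -0.17), and with adjusted p = 0.0854 it was not called. Exons of *Polr3gl* overlap 57 of its 1597 bp with *Gm16253* on the other strand.

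*Polr3g* was at 3.46, 4.28 and 4.12 FPKM in the *Znf143 f/f* and at 4.37, 4.62 and 4.60 FPKM in the *Znf143 -/-* libraries. The groups did not overlap, but the gap between 4.28 and 4.37 FPKM was small beside the spread of the *Znf143 f/f* libraries, and the log2 difference of 0.20 ± 0.13 was not called (adjusted p = 0.414). The ratio of *Polr3gl* to *Polr3g* does not depend on how a library is scaled. Its values were 4.04, 2.83 and 3.35 for *Znf143 f/f* against 2.5, 2.02 and 1.94 for *Znf143 -/-* libraries, with means of 3.41 ± 0.61 and 2.16 ± 0.30 (SD, n = 3 each). All 3 *Znf143 -/-* ratios were lower, as they had to be, since both genes lay without overlap and in opposite directions. The mean log2 ratio was lower by 0.65 in *Znf143 -/-* libraries (difference -0.65, exact permutation test, two-sided, p = 0.1), and 0.10 is the smallest p that 3 against 3 libraries allow. That p was thus fixed by the values of both genes and adds no evidence to them. In every library *Polr3gl* was the form with the higher level per length.

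**Figure D3:**
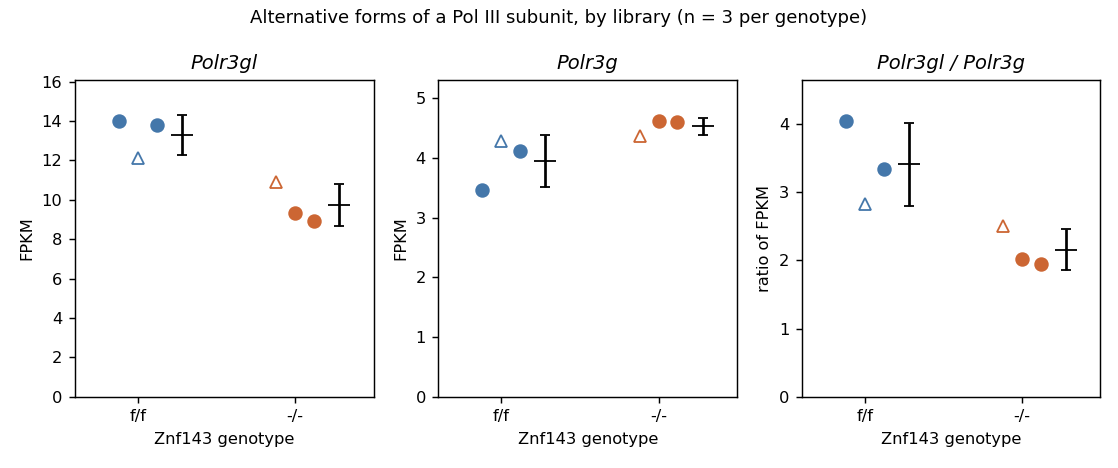
FPKM of *Polr3gl* (left) and *Polr3g* (middle) and their ratio (right) in each library, with mean and SD of 3 libraries per genotype in black; triangles mark the 2 libraries that stood apart. The ratio is 2.83 to 4.04 in *Znf143 f/f* and 1.94 to 2.5 in *Znf143 -/-* libraries, and all axes start at 0.

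*Polr3f*, whose product sits in the same trimer and helps to recruit the enzyme, was at 2.66, 2.76 and 3.0 FPKM in the *Znf143 f/f* and at 2.05, 2.04 and 2.06 FPKM in the *Znf143 -/-* libraries (GRCm38 chromosome 2, 144527718 to 144541995, plus strand). The *Znf143 -/-* libraries were almost equal, and none reached the lowest *Znf143 f/f* library. The log2 difference was -0.43 ± 0.13 (95% interval -0.73 to -0.14, adjusted p = 0.104). *Polr3c*, the remaining member of the trimer, had a log2 difference of 0.23 ± 0.15 with overlapping groups. *Polr3k*, which acts in RNA cleavage and termination, was at 61.5, 58.4 and 60.1 FPKM against 44.3, 54.2 and 49.3 FPKM, a log2 difference of -0.29 ± 0.10 (adjusted p = 0.153; GRCm38 chromosome 2, 181864337 to 181870830, plus strand). Again all *Znf143 -/-* libraries were lower. *Polr3f*, *Polr3k* and the other members without overlap were singled out for values by library after these had been seen.

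The catalytic pair of Pol III had estimates above 0. *Polr3a* was at 2.65, 2.06 and 2.78 FPKM in the *Znf143 f/f* and at 2.44, 2.59 and 2.61 FPKM in the *Znf143 -/-* libraries, with overlap and a log2 difference of 0.04 (95% interval -0.33 to 0.41). For *Polr3b* the log2 difference was 0.26 ± 0.19. Its *Znf143 -/-* libraries 2 and 3, at 5.28 and 5.06 FPKM, lay above every *Znf143 f/f* library (3.57 to 3.89 FPKM), and the first, at 3.33 FPKM, below. Without that library *Polr3b* and *Polr3gl* were called (2 of 29 genes, 6.90%, against 9.91% of all genes). *Polr3d* and *Polr3e*, which form a dimer that works in initiation and termination, had log2 differences of 0.02 and -0.23.

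*Crcp*, a subunit of Pol III, lay lower without overlap, at 29.5, 24.8 and 26.9 FPKM against 16.4, 21.5 and 20.2 FPKM. Its log2 difference was -0.49 ± 0.13 (adjusted p = 0.0873). With median-of-ratios scaling it was called (adjusted p = 0.0315), but it was not as deposited (adjusted p = 0.265), with the replicate number as a block (adjusted p = 0.255) or with both the block and that scaling (adjusted p = 0.145).

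Within a genotype the members varied mostly with the 2 libraries that stood apart. The second *Znf143 f/f* library was the one farthest from its genotype's median in 21 of the 28 genes, and the first *Znf143 -/-* library in 22. Both deviated to the same side in 23 genes, in 8 upwards and in 15 downwards. The median length was 1159 bp for the 8 and 3897 bp for the 15. By enzyme, the first *Znf143 -/-* library had a median deviation from the *Znf143 f/f* mean of -0.22 on the log2 scale for Pol III alone and of 0.34 for the genes shared by all 3, where the other 2 *Znf143 -/-* libraries were at 0.07 and 0.08 and at -0.17 and -0.06. For the genes of Pol II alone the medians of all 6 libraries lay within -0.03 and 0.03, but single genes moved to both sides. In the 2 libraries that stood apart *Polr2d* was at 208 and 180 FPKM, against 152.5 to 166.4 FPKM in the rest. *Polr2m* was at 82.5 and 80.4 FPKM in these 2, against 108 to 115 FPKM in the rest.

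The comparison was therefore also made within each set of libraries, a choice made after these values were seen. With *Znf143 -/-* 2 and 3 against *Znf143 f/f* 1 and 3, 12 of 29 genes were called (41.4%), against 42.4% of all genes. These were *Polr1b*, *Polr1c*, *Polr1e*, *Polr2e*, *Polr2h*, *Polr3b*, *Polr3c* and *Polr2k-ps*, higher, and *Polr2i*, *Polr3f*, *Polr3gl* and *Polr3k*, lower. The log2 difference of *Polr3gl* was -0.60 (adjusted p = 0.00187) and that of *Polr3b* 0.49 (adjusted p = 0.0055). Since the like libraries differ so little, these p-values rest on a very small spread. The first *Znf143 -/-* against the second *Znf143 f/f* library, 1 each and without a test, had the same sign in 9 of the 11 protein-coding genes called (81.8%), against 70.4% of all 8104 genes called there under a unique symbol. It was -0.15 for *Polr3gl*, -0.41 for *Polr3f* and -0.40 for *Polr3k*, and it had the other sign for *Polr3b* (-0.22) and *Polr2i* (0.07). With all 6 libraries and the split as a term of the fit, 8 of 29 genes were called (27.6%), against 20.7% of all genes: *Polr1b*, *Polr1e*, *Polr2e*, *Polr2h* and *Polr3c*, higher, and *Polr3f*, *Polr3gl* and *Polr3k*, lower. The adjusted p of these 8 ran from 0.0237 to 0.0382, and the labels do not name this split.

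**Figure D4:**
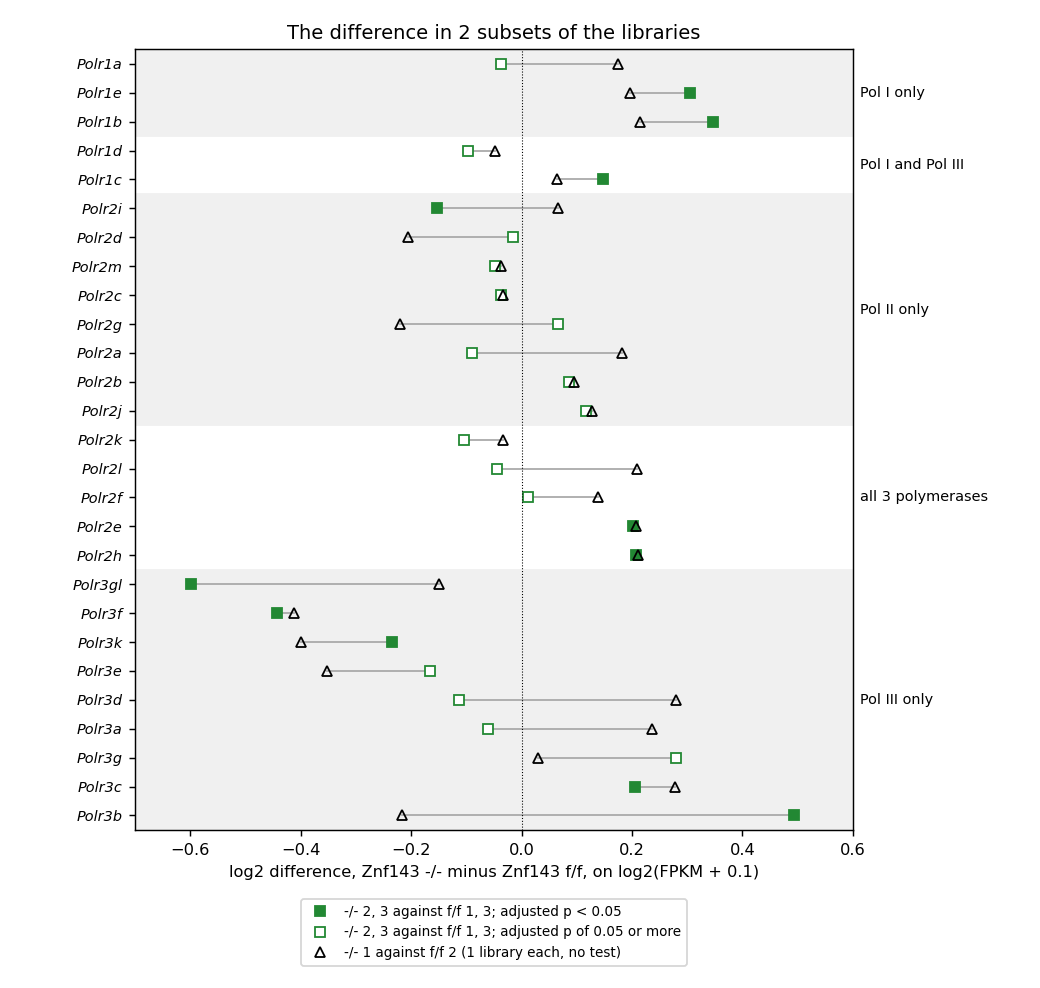
Log2 difference on log2(FPKM + 0.1) of 27 of the 28 protein-coding genes in 2 subsets of the libraries: squares, *Znf143 -/-* 2 and 3 against *Znf143 f/f* 1 and 3 (filled where adjusted p was under 0.05 by limma); triangles, *Znf143 -/-* 1 against *Znf143 f/f* 2, without a test. Both marks lie on the same side of 0 in 19 of the 27 genes plotted, and the marks of *Polr3f*, *Polr2e* and *Polr2h* nearly coincide.

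The promoters of the members were searched for 2 motifs associated with ZNF143, ACTACAA and CCCANNATG, on both strands. RefSeq windows from 250 bases before to 50 bases after the start (GRCm38.p6) were used for 22 of 28 members searched, and *Polr2d*, *Polr2g*, *Polr2k*, *Polr2k-ps*, *Polr3a* and *Polr3d* had no entry. ACTACAA was in none of the 22, against 3.24% of 32851 windows, and CCCANNATG was in 2 of the 22, *Polr3b* and *Polr3e*, against 5.01%. Of the 18 general factors of Pol II described next, 15 had a window. ACTACAA was in 1 of the 15, *Gtf2h4*, and CCCANNATG in 2, *Gtf2f1* and *Gtf2h4*, while 0.377% of all windows held both. This list was searched after *Gtf2h4* had been seen to be called. The stretches just upstream of the start are shown for these 3 genes and for the 3 members with the lowest estimates. Capitals mark matches, with a match on the other strand read as its reverse complement (TTGTAGT, CATNNTGGG). The coordinates are GRCm38.p6, and the letters are given 5′ to 3′ on the strand of the gene.
*Gtf2h4* (chr17:35673744-35673863, minus strand): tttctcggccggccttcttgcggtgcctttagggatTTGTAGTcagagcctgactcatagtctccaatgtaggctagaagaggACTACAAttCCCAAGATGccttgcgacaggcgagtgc
*Polr3b* (chr10:84622172-84622291, plus strand): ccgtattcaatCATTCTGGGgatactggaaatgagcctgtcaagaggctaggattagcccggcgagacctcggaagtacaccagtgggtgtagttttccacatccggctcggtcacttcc
*Polr3e* (chr7:120917729-120917758, plus strand): ccggggcggggCATTGTGGGtaagaggaag
*Polr3gl* (chr3:96594182-96594301, minus strand): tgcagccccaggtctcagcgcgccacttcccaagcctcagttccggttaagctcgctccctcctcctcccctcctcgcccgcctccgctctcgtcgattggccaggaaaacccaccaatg
*Polr3f* (chr2:144527598-144527717, plus strand): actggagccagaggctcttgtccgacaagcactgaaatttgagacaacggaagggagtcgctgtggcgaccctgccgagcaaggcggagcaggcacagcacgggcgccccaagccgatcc
*Polr3k* (chr2:181864217-181864336, plus strand): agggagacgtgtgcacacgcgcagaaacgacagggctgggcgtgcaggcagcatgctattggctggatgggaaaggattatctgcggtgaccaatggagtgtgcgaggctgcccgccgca
In *Gtf2h4* an ACTACAA and a CCCANNATG lie side by side, 37 and 28 bases before the start, with a second ACTACAA 84 bases before it on the other strand. In *Polr3e* the match begins 38 bases and in *Polr3b* 115 bases before the RefSeq start, and the windows of *Polr3gl*, *Polr3f* and *Polr3k* held neither motif. In GENCODE release M21 *Polr3e* starts at 120917744, within its match, so the end of its stretch lies inside that gene. A match is a match of letters, and no match says only that these letters are not in the window. The window of *Polr3e* also takes in part of *n-TLaag4*, a leucine transfer RNA gene of 82 bases that ends before the start of *Polr3e* (chr7:120917517-120917598), so that a gene read by Pol III lies beside a gene of Pol III.

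General promoter motifs were added after the values had been seen. GGGCGG, the core of the GC box, was in 63.6% of the 22 windows and in 63.0% of 10751 windows of genes with a mean of at least 1 FPKM. CCGGAA, the core of sites for ETS factors, was in 50% against 29.3%, CCAAT in 31.8% against 38.3% and TATAAA in 9.09% against 6.71%. With 22 windows, each gene is worth several percentage points.

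The factors that work with the enzymes were taken from lists chosen with earlier results of these data known. Of 18 general factors of Pol II, 1 was called, against 5.19% of all tested genes. It was *Gtf2h4*, a subunit of the DNA-opening factor TFIIH, and it was lower. *Gtf2h4* was at 14.4, 13.6 and 15.2 FPKM in the *Znf143 f/f* libraries and at 5.46, 6.91 and 6.46 FPKM in the *Znf143 -/-* libraries. The groups were far apart, with a log2 difference of -1.19 ± 0.12 (95% interval of -1.48 to -0.90, adjusted p = 0.00465). It was also lower in the first *Znf143 -/-* against the second *Znf143 f/f* library, by a difference of -1.30. The median over the 18 factors was 0.10. Of the other lists none had a gene called: 0 of 7 Pol I factors (median 0.15), 0 of 11 Pol II elongation factors (0.05), 0 of 11 Pol III factors (-0.08) and 0 of 8 assembly factors (0.11). With 5.19% of all tested genes called, nothing is read from counts over lists this short. *Polrmt*, the mitochondrial polymerase, was not called (0.30 ± 0.20).

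The kit used for these libraries starts from poly(A) tails, which the main products of Pol I and Pol III lack, so these products are poorly measured. Of 9 listed products, 7 were in the table, without the ribosomal RNA precursor, and 0 of 7 were called, against 5.19% of all tested genes. *Rn7sk*, a Pol III transcript that controls Pol II elongation, was at 90.9, 160 and 92.2 FPKM against 122, 84.2 and 88.2 FPKM. The 2 libraries that stood apart were highest in both genotypes, and *Vaultrc5*, a vault RNA, showed the same with 41.8 and 47.2 FPKM against 7.79 to 18.7 FPKM in the other 4. The output of the 3 enzymes was not measured here.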

How the data were processed

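HSLAM RNA-seq libraries of 3 *Znf143 f/f* and 3 *Znf143 -/-* mice were analysed; ChIP-seq and HiC samples were not analysed here. Per the study's methods, reads were trimmed (TrimGalore), mapped to GRCm38 (STAR) and counted per gene (FeatureCounts). The authors deposited the FPKM of each library beside the length of each gene in bases. The deposited table also holds the mean count, fold change and p-values of the authors' own comparison with DESeq2, which were not used. FPKM times length came out as whole fragments (within 0.05) for 99.986% of values. From these, each library's divisor was found to be its own total of fragments within 2%, except in the third *Znf143 -/-* library, which carried the divisor of the second (ratio 1.20) and was divided by its own total.

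Genes with a mean of at least 0.1 FPKM were compared by limma 3.58.1 under R 4.3.3, using lmFit and eBayes with a trend on log2(FPKM + 0.1) values, two-sided, and p-values were adjusted by the Benjamini-Hochberg method over all 19212 genes, without a block; a gene was called at an adjusted p under 0.05. The pseudocount makes a difference of low genes appear smaller. The fit was tested on simulated data. The *Polr3gl* to *Polr3g* ratio was compared by an exact permutation test in SciPy. Figures were drawn with matplotlib. Depth ranged from 38643255 to 57895793 fragments on genes, and counting error covers sampling of fragments only. Values of 1 member and 1 marker gene are not reported here, though counts and medians over lists include them; all other members are named; values by library are given for *Polr1a*, *Polr2a*, *Polr3a*, *Polr3g*, *Polr3gl* and any member called under the main, deposited or median-of-ratios scaling, and other polymerase genes are named where called. The members, lists and markers were chosen with earlier results of these data known. The alternatives tried are given in the closing section. Positions and exon overlaps were taken from GENCODE release M21, and promoter windows from RefSeq (GRCm38.p6), without those on chromosome 18. The kit does not mark strand, so fragments from exons that overlap another gene on the opposite strand cannot be separated. Such an overlap was found for 10 of the 29 members. Among them were *Polr2c* (953 bp with *Dok4*), *Polr2i* (325 bp with *Tbcb*), *Polr3b* (247 bp with *Gm17249*) and *Polr2f* (245 bp with *1700088E04Rik*).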

Additional observations from a re-analysis of the deposited data

How the results depend on the processing

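Of the 29 members, 0 were called under 15 of the 16 other settings tried, and leaving out 1 library gave 0 to 2 (2 without the first *Znf143 -/-* library, *Polr3b* and *Polr3gl*). The count over all genes, 997, was 833 as deposited, 1154 with median-of-ratios scaling and 1027 by voom, and 189 to 1899 with 1 library left out; without the second *Znf143 f/f* or the first *Znf143 -/-* library it was 1890 and 1899, without any other 189 to 312. With the replicate number of the labels as a replicate block it was 175, and 186 with median-of-ratios scaling as well, with 0 members called in both. Same-numbered libraries did not deviate together (correlations of -0.097, -0.090 and 0.035), so the numbers are not taken as pairs. Without the second *Znf143 f/f* and the first *Znf143 -/-* library, 8106 genes and 12 members were called, and with this split as a term 3981 genes and 8 members; both were added after the data were seen.

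The direction of 14 members held under all 16, among them *Polr1b*, *Polr1c*, *Polr1e*, *Polr2e*, *Polr2h*, *Polr3b*, *Polr3c*, *Polr3e*, *Polr3f*, *Polr3g*, *Polr3gl* and *Polr3k*, and that of 15, none of them called, did not. As deposited, the log2 difference was 0.005 for *Polr1d*, 0.051 for *Polr2c*, 0.008 for *Polr2d*, 0.057 for *Polr2g*, 0.006 for *Polr2i*, 0.006 for *Polr2k* and 0.041 for *Polr2m*, and the median was 0.105 for Pol I with Pol III and 0.054 for Pol II alone. With median-of-ratios scaling, with or without the replicate block, it was -0.026 for *Polr2a* and -0.009 for *Polr3d*, and the median of Pol II alone was -0.060. Without both libraries that stood apart it was -0.037 for *Polr1a*, -0.089 for *Polr2a*, 0.066 for *Polr2g*, -0.045 for *Polr2l*, -0.060 for *Polr3a* and -0.113 for *Polr3d*. Leaving out 1 library gave -0.126 to 0.130 for *Polr1a*, -0.197 to 0.018 for *Polr1d*, -0.052 to 0.058 for *Polr2a*, -0.067 to 0.242 for *Polr2b*, -0.169 to 0.047 for *Polr2d*, -0.130 to 0.194 for *Polr2f*, -0.100 to 0.060 for *Polr2g*, -0.288 to 0.105 for *Polr2k*, -0.146 to 0.144 for *Polr2l*, -0.200 to 0.107 for *Polr2m*, -0.089 to 0.120 for *Polr3a* and -0.182 to 0.132 for *Polr3d*. Without changing sign, it gave 0.137 to 0.512 for *Polr1b*, 0.139 to 0.464 for *Polr3b* and 0.102 to 0.332 for *Polr3c*. Medians ranged from 0.137 to 0.355 for Pol I alone, from -0.025 to 0.069 for Pol I with Pol III, from -0.032 to 0.017 for Pol II alone, from -0.130 to 0.176 for the genes shared by all 3 and from -0.136 to 0.096 for Pol III alone. The *Polr3gl* to *Polr3g* log2 ratio difference ranged from -0.780 to -0.523. *Gtf2h4* was called under each of the 16 (adjusted p up to 0.0497, with the replicate block). The causes were not tested. With 3 libraries per genotype, 1 of each standing apart, the smallest difference called among all genes with a mean of at least 1 FPKM was 0.39 on the log2 scale.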
